A study of Mus musculus with 6 samples.

Results

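The genes described here are 9 feedback brakes on RAS and ERK signaling, taken by symbol from the gene count table: the dual-specificity phosphatases *Dusp1*, *Dusp4*, *Dusp5* and *Dusp6*, the Sprouty genes *Spry1*, *Spry2* and *Spry4*, and the Spred genes *Spred1* and *Spred2*. All 9 were found among the 22295 genes of the table, all are protein coding, and none had fewer than 10 counts in any library. They were measured by RNA sequencing of GFP-positive keratinocytes that were FACS-sorted from mouse epidermis, in 3 K19 *Itga3* WT and 3 K19 *Itga3* KO libraries. Both genotypes, bred on FVB per the labels and FVB/N per the methods, carried the tamoxifen-inducible Cre driven by the K19 promoter, written 19(Cre-ERT) in the sample labels, and the mTmG reporter, which turns recombined cells green, and only the KO line also had floxed *Itga3*. All mice received tamoxifen (10 mg/ml, over 4 days) at 6 weeks of age, 30 µg of the mutagen DMBA at 7 weeks, and then 12.34 µg of the phorbol ester TPA bi-weekly for 2 weeks. The methods of the study describe a different tamoxifen scheme. Because the K19 promoter targets Cre to the hair bulge (HB), epidermal cells of a KO mouse other than recombined bulge cells and their progeny keep *Itga3*. Per the study, deletion did not reach all bulges. After this treatment it found GFP-positive cells in growing follicles and, in some cases, in the upper follicle and the epidermis between follicles. The sorted cells can thus include cells from outside the bulge. No untreated group was measured, so the values compare genotypes under treatment and not the response to DMBA or TPA.

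A growth factor receptor activates RAS, which passes the signal through RAF and MEK to ERK, and ERK then switches on genes whose products damp the same route. Dual-specificity phosphatases remove the activating phosphates from MAP kinases, Sprouty proteins act between the receptor and RAF, and Spred proteins bring the RAS inactivator neurofibromin to the membrane. Transcripts of this group are commonly read as a trace of recent ERK activity. Tumors that arise under DMBA/TPA mostly carry an activated *Hras*, and TPA binds to protein kinase C and RasGRP proteins. Whether *Hras* was mutated in the sorted cells, taken before tumors form, was not measured.

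To show what lies before some of these genes, promoter sequence of GRCm38.p6 was taken from RefSeq, which held 7 of the 9 genes (*Dusp4* and *Spry4* were not matched). The 250 bases before each start were searched on both strands for the cAMP response element (CRE, TGACGTCA), the AP-1 site (TGANTCA), the ETS core (CCGGAA) and the CArG box bound by serum response factor. Of the 32851 promoters in the RefSeq table, 1.55% held the CRE, 6.75% the AP-1 site, 12% the ETS core and 1.47% the CArG box. Shown are the promoters of *Dusp5* and *Dusp6*, which had similar differences between genotypes, of *Dusp1*, which did not share them, and of *Spry1*, the gene with the smallest p. Each runs 5′ to 3′ on the strand of its gene and stops before the gene of the count table begins, and capitals mark a match.
Dusp1 (chr17:26508520-26508722, minus strand, 203 bases): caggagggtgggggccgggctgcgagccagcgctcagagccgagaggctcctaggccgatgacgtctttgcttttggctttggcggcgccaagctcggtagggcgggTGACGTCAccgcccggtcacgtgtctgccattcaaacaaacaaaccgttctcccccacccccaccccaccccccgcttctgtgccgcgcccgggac
Dusp5 (chr19:53528895-53529108, plus strand, 214 bases): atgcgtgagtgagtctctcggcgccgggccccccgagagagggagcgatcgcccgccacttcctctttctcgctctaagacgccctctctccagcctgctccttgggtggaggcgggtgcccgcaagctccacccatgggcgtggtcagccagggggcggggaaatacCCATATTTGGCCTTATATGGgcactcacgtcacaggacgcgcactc
Dusp6 (chr10:99262981-99263230, plus strand, 250 bases): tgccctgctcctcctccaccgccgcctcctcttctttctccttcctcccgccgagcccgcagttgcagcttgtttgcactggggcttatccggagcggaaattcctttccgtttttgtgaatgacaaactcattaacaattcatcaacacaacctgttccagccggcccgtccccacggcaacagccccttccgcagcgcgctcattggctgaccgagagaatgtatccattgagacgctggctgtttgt
Spry1 (chr3:37639697-37639946, plus strand, 250 bases): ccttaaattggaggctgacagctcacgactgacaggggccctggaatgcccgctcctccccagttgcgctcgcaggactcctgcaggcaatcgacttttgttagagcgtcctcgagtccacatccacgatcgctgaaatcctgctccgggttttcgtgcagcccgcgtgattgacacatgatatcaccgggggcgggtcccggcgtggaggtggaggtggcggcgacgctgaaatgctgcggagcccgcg
The window of *Dusp1* held 1 CRE, which begins 143 bases before the RefSeq start. That of *Dusp5* held 2 adjoining CArG boxes, beginning 82 and 72 bases before the start. The matches overlapped no other motif, and these letters were not found in the windows of *Dusp6*, *Spry1*, *Spry2*, *Spred1* or *Spred2*. A match describes the letters and says nothing about binding.

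None of the 9 genes passed the test between genotypes. At an adjusted p below 0.05 by edgeR's quasi-likelihood test, 0 of 9 were called, against a background of 0.673% of all 21681 genes tested (146 genes, 100 of them higher and 46 lower in KO), and limma-voom and DESeq2 also called 0. At an unadjusted p below 0.05 there were 5, of which 4 (*Dusp4*, *Dusp5*, *Dusp6* and *Spry4*) had the higher mean in KO and 1 (*Spry1*) the lower. The background at that limit was 11.5% of all genes tested, and 16.5% of the 13054 genes that reached 10 counts in each library. In 3 genes (*Dusp4*, *Spry2* and *Spry4*) every KO library lay above every WT library, against a background of 8.03%, and in 2 (*Spry1* and *Spred1*) every KO library lay below, against 8.23%. The median log2 fold change of the 9 genes, KO minus WT, was 0.06, beside 0.00 for all genes tested. It was 0.04 without WT b and 0.38 without WT a, where 7 of the 9 were above 0, so 1 library decides this median. The 0.38 is the value of *Dusp1*, then the middle gene. *Dusp5*, *Dusp6* and *Spry4* also rose without WT a, to 0.86, 0.73 and 0.78. *Dusp4*, *Spry1*, *Spry2* and *Spred1* hardly moved (0.50, -0.34, 0.08 and -0.16), and *Spred2* was at 0.01.

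Levels are given as CPM (counts relative to library size, scaled by TMM factors), and folds on the log2 scale as KO minus WT with the standard error (SE). Each library is named by its genotype and a letter, which follows the order of the count table and pairs no samples. Per the study the libraries came from separate mice, so that p-values rest on the spread between animals of a genotype. The edgeR test estimates this spread with the help of many genes and not from each gene alone. Total counts ran from 21167965 to 22851841 in WT and from 20578309 to 23670507 in KO, and every pair of libraries differed by more than counting error. The targeted gene *Itga3* (chr11:95044474-95076801), which encodes the α3 subunit of the laminin receptor α3β1, measured 371, 252 and 271 CPM in WT and 131, 124 and 134 CPM in KO (log2 fold change -1.20, SE 0.13, edgeR adjusted p = 0.00283). The WT b library was the lowest of all 6 for 28.7% of the 13054 genes with at least 10 counts throughout, more often than any other. It was also the highest more often than any other, for 3146 of these genes, so it stood out in both directions. In sorted bulk cells, fewer cells of a type and less RNA per cell cannot be told apart.

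Compared per kilobase of exon, the 9 genes kept the same order with and without the correction for length. *Dusp1* had the highest level, 150.3 to 309 CPM per kb over the 6 libraries, followed by *Dusp6* with 39.6 to 125 CPM per kb. These 2 phosphatases stood apart from each other and from the rest without overlap. *Spred1* came next (21.7 to 24.7 CPM per kb), then *Spred2* (16.6 to 21.1) and *Spry2* (16.7 to 18.6), whose ranges overlapped although *Spred2* was above *Spry2* in 5 of 6 libraries. Below them were *Spry1* (9.32 to 13.2 CPM per kb) and *Dusp5* (3.57 to 9.25), each apart from its neighbours in range. The lowest were *Spry4* (0.999 to 2.95 CPM per kb) and *Dusp4* (0.854 to 1.50), whose ranges overlapped, with *Spry4* above *Dusp4* in 6 of 6 libraries.

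**Figure D1:**
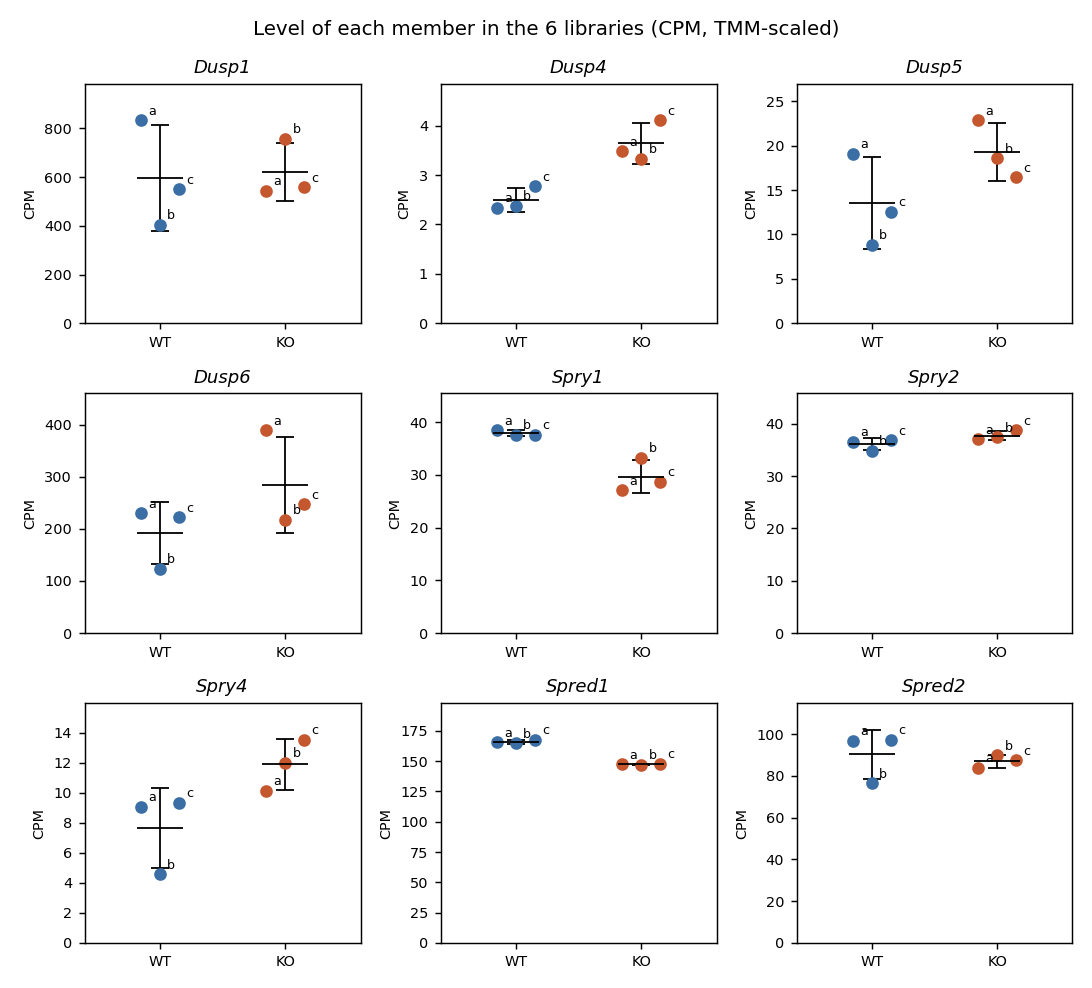
Level of each of the 9 genes in CPM (vertical axes, each from 0) in the WT and KO libraries; points are libraries with their letters, the long bar is the group mean and the short bars the SD (n = 3). *Spry1* and *Spred1* lie lower in all KO libraries, *Dusp4* and *Spry4* lie higher, and WT b is the lowest point for *Dusp1*, *Dusp5*, *Dusp6*, *Spry2*, *Spry4* and *Spred2*.

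Of the phosphatases that act in the nucleus, *Dusp1* is an immediate early gene whose product acts on stress-activated MAP kinases as well as ERK. *Dusp1* (ENSMUSG00000024190, chr17:26505590-26508519) measured 834 CPM in WT a, 405 in WT b and 549.8 in WT c. In the KO libraries it measured 544 CPM (KO a), 757 (KO b) and 558 (KO c), the order used for all genes below. The groups overlapped, with both the highest and the lowest library in WT. Their means were 596 ± 218 and 619.7 ± 119 CPM (SD, n = 3), and the log2 fold change was 0.06 (SE 0.22, 95% interval -0.42 to 0.53, edgeR adjusted p = 0.942). It turned to -0.16 without WT b and to -0.10 without KO b.

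*Dusp4*, an inducible nuclear phosphatase of ERK and other MAP kinases, was the least abundant of the 9 genes. *Dusp4* (ENSMUSG00000031530, chr8:34807297-34819894) measured 2.34, 2.38 and 2.78 CPM in the WT libraries and 3.49, 3.33 and 4.11 CPM in the KO libraries, from 51 to 85 counts per library. All KO libraries were above all WT libraries. The means were 2.50 ± 0.24 and 3.64 ± 0.41 CPM, and the log2 fold change was 0.54 (SE 0.22, 95% interval 0.07 to 1.01), with an unadjusted p of 0.0278 and an adjusted p of 0.350 (edgeR). The log2 fold change stayed between 0.45 and 0.62 when each library was left out in turn.

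*Dusp5* encodes a nuclear phosphatase specific for ERK. Its transcript (ENSMUSG00000034765, chr19:53529109-53542431) measured 19.1, 8.84 and 12.6 CPM in WT and 22.9, 18.6 and 16.4 CPM in KO. WT a lay within the KO range and WT b was the lowest. The means were 13.5 ± 5.19 and 19.3 ± 3.27 CPM, with a log2 fold change of 0.52 (SE 0.23, 95% interval 0.00 to 1.03), an unadjusted p of 0.0486 and an adjusted p of 0.429 (edgeR). *Dusp5* was the only one of the 9 genes called when a library was left out: without WT a the log2 fold change was 0.86 with an edgeR adjusted p of 0.0354, and without WT b it was 0.29 with 0.747.

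*Dusp6* encodes the cytoplasmic phosphatase specific for ERK, and is often used as a readout of ERK activity. Its transcript (ENSMUSG00000019960, chr10:99263231-99267488) measured 230.2, 124 and 222 CPM in WT and 389.8, 218 and 247 CPM in KO. KO a was the highest and WT b the lowest library, while KO b lay within the WT range. The means were 192 ± 59.3 and 285 ± 92.0 CPM, and the log2 fold change was 0.57 (SE 0.24, 95% interval 0.05 to 1.09), with an unadjusted p of 0.0354 and an adjusted p of 0.384 (edgeR). Leaving out KO a gave 0.27 and leaving out KO b gave 0.74, the ends of the range over libraries left out, and without WT b it was 0.33. The exact two-sided permutation test on CPM gave p = 0.3 for both *Dusp5* and *Dusp6*, where the smallest p that 3 against 3 allows is 0.1.

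The genes whose profiles were most like that of *Dusp6* over the 6 libraries, by Pearson's r on log2 CPM, were *Psmb2* (r = 0.998), *Selt* (r = 0.996) and *Ran* (r = 0.994). *Psmb2* encodes a proteasome subunit, and *Ran* the GTPase of nuclear transport. With 6 points that share library and depth this is a description only, and 169 of the 13053 genes compared had r above 0.95.

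Sprouty genes encode inhibitors that are phosphorylated after growth factor stimulation. *Spry1* (ENSMUSG00000037211, chr3:37639947-37644598) measured 38.5, 37.7 and 37.6 CPM in WT and 27.1, 33.3 and 28.7 CPM in KO. The WT libraries lay close together and all KO libraries were below them. The means were 37.9 ± 0.505 and 29.7 ± 3.20 CPM, a log2 fold change of -0.35 (SE 0.11, 95% interval -0.59 to -0.11). This was the smallest p of the 9 genes, 0.00763 unadjusted and 0.202 adjusted (edgeR). Without each library in turn the log2 fold change ranged from -0.43 to -0.29, and the lowest adjusted p over all alternatives was 0.0846, by DESeq2.

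*Spry2* hardly varied. *Spry2* (ENSMUSG00000022114, chr14:105891949-105896819) measured 36.6, 34.9 and 36.9 CPM in WT and 37.0, 37.4 and 38.8 CPM in KO. The lowest KO library, at 36.98 CPM, was just above the highest WT library, at 36.86 CPM. The log2 fold change was 0.06 (SE 0.10, 95% interval -0.15 to 0.27, edgeR adjusted p = 0.812), so that *Spry2* did not overlap between groups yet had means of 36.1 ± 1.08 and 37.7 ± 0.942 CPM.

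*Spry4* had the highest log2 fold change of the 9 genes, though without passing the test. *Spry4* (ENSMUSG00000024427, chr18:38586268-38601268) measured 9.09, 4.58 and 9.35 CPM in WT and 10.2, 12.0 and 13.5 CPM in KO, from 100 to 280 counts. All KO libraries were above all WT libraries, and WT b was far below WT a and WT c. The means were 7.67 ± 2.68 and 11.9 ± 1.69 CPM, and the log2 fold change was 0.63 (SE 0.24, 95% interval 0.11 to 1.16), with an unadjusted p of 0.0223 and an adjusted p of 0.320 (edgeR). Without WT b the log2 fold change was 0.37. *Spry1* and *Spry4* thus lay on opposite sides of 0. The difference between these genes was not tested.

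*Spred1* and *Spred2* encode the membrane partners of neurofibromin. *Spred1* (ENSMUSG00000027351, chr2:117121374-117182279) measured 166, 165 and 168 CPM in WT and 148, 147 and 148 CPM in KO. Every KO library was below every WT library by more than either group's spread. The means were 166 ± 1.47 and 148 ± 0.489 CPM, and the log2 fold change was -0.17 (SE 0.08, 95% interval -0.35 to 0.01), with an unadjusted p of 0.0578 and an adjusted p of 0.451 (edgeR). The coefficient of variation between libraries, 0.886% in WT and 0.331% in KO, was below the 1.65% and 1.76% that counting error alone gives at these counts, which also held in both groups for 4.59% of the 13054 genes. The edgeR test takes its spread from many genes and not from these 3 libraries alone.

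*Spred2* (ENSMUSG00000045671, chr11:19924375-20024026) measured 96.9, 76.6 and 97.3 CPM in WT and 83.9, 90.0 and 87.4 CPM in KO. The KO libraries all lay inside the WT range. Means were 90.3 ± 11.8 and 87.1 ± 3.10 CPM, with a log2 fold change of -0.05 (SE 0.11, 95% interval -0.28 to 0.18, edgeR adjusted p = 0.868). For the 5 genes without overlap the exact permutation p was 0.1, the smallest possible. Groups of 3 without overlap always give this value, so it adds nothing to the lack of overlap. For *Dusp1* and *Spred2* the exact permutation p was 0.9 and 0.7.

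**Figure D2:**
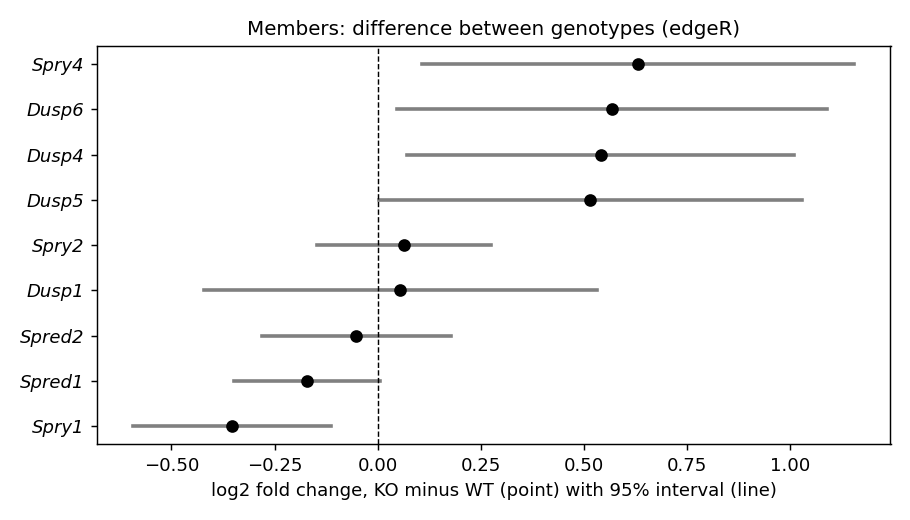
Log2 fold change, KO minus WT, of the 9 genes (horizontal axis; points are edgeR estimates, lines their 95% intervals, n = 3 per group). *Spry4*, *Dusp6*, *Dusp4* and *Dusp5* lie between 0.52 and 0.63 with intervals above 0, *Spry1* at -0.35 has its interval below 0, and none has an adjusted p below 0.05.

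The spread within WT was uneven among the 9 genes. *Dusp1*, *Dusp5*, *Dusp6* and *Spry4* had coefficients of variation of 30.8% to 38.4% in WT, whereas *Spry1*, *Spry2* and *Spred1* had 0.886% to 3.00%, beside a median of 10.8% over the 13054 genes. WT b was the lowest of the 6 libraries for 6 of the 9 genes, and the lowest WT library for 7. In WT b, *Dusp1*, *Dusp5*, *Dusp6* and *Spry4* were at 0.597 to 0.68 of their WT mean, while *Spry1* and *Spred1* were at 0.993 and 0.992 of theirs. Without WT b, the genes at an unadjusted p below 0.05 were *Dusp4*, *Spry1* and *Spred1*, and none was called by edgeR. The part of WT b in the differences of *Dusp5*, *Dusp6* and *Spry4* was otherwise not tested.

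**Figure D3:**
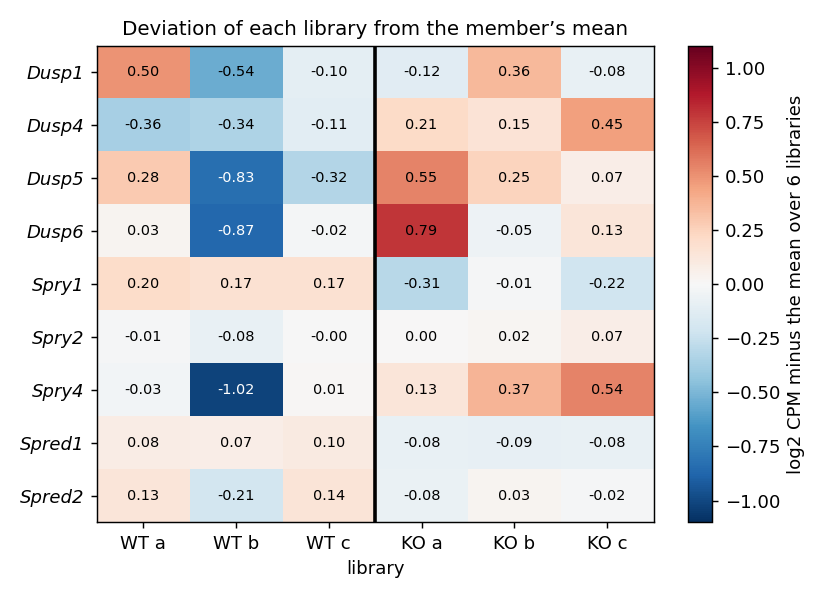
Deviation of each library from the gene's mean over the 6 libraries, in log2 CPM (color; red above, blue below), for the 9 genes (rows) and 6 libraries (columns, WT left of the line). WT b is at -1.02 for *Spry4*, -0.87 for *Dusp6* and -0.83 for *Dusp5*, whereas *Spred1* splits by genotype with deviations of -0.09 to 0.10.

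The other genes of the route were described with lists, counted in the same edgeR test. Across all lists limma-voom called 0 genes. Of 6 other MAP kinase phosphatases, edgeR and DESeq2 called 0, with 2 higher and 1 lower in KO at an unadjusted p below 0.05, and the median log2 fold change was 0.29. *Dusp10*, which acts mainly on stress-activated kinases, measured 8.62 ± 2.61 CPM in WT and 15.2 ± 4.20 CPM in KO, without overlap (log2 fold change 0.82, edgeR adjusted p = 0.169). *Dusp16* also lay higher in every KO library (0.30, adjusted p = 0.249 by edgeR). *Dusp8* had a log2 fold change of -0.45 (edgeR adjusted p = 0.285), and edgeR called it lower without WT b, whereas it called *Dusp10* higher without WT a.

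Of 16 other brakes on RAS and ERK, edgeR and DESeq2 called 0, with 1 higher and 1 lower at an unadjusted p below 0.05, and the median log2 fold change was 0.09. *Spred3*, the relative of *Spred1* and *Spred2*, measured 15.6 ± 4.47 CPM in WT and 9.48 ± 1.37 CPM in KO, with every KO library below every WT library (log2 fold change -0.72, edgeR adjusted p = 0.157, called lower without WT a). *Lrig1*, a receptor inhibitor that also marks hair follicle stem cells, had a log2 fold change of 0.38 (edgeR adjusted p = 0.271). Of the 22 genes of the cascade itself, from *Egfr* to the ERK-activated kinases, edgeR called 0 and DESeq2 1 (*Gab1*, higher), 2 were higher at an unadjusted p below 0.05, and the list had a median log2 fold change of 0.09. WT b was the lowest library for 12 of these 22, and without it the median was 0.04. The smallest p there belonged to the adaptor *Gab1* (log2 fold change 0.32, edgeR adjusted p = 0.138). The 13 receptors of phorbol ester had 0 calls by edgeR or DESeq2, 1 higher and 1 lower at an unadjusted p below 0.05, and a median of -0.01, with the smallest p for *Rasgrp1* (log2 fold change -0.72, edgeR adjusted p = 0.365) and *Prkch* (0.21, adjusted p = 0.427).

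Among 17 other transcripts that ERK induces, edgeR called 1 higher and 16 had a log2 fold change above 0, with a median of 0.38. Of all 21681 genes tested, 10841 had a log2 fold change above 0. *Egr3*, an early response transcription factor, measured 28.8, 22.4 and 29.6 CPM in WT and 66.1, 40.2 and 58.9 CPM in KO. Every KO library was above every WT library (log2 fold change 1.03, SE 0.17, edgeR adjusted p = 0.0251). *Etv4*, an ETS factor, also lay higher in every KO library without passing the test (0.54, edgeR adjusted p = 0.113). WT b was the lowest library for 15 of the 17 genes, and without it the median was 0.22, 14 genes were above 0, and edgeR called 0, *Egr3* included. *Egr3* was also not called without WT c, KO a or KO c, or with either filter on low counts. Without WT a the median was 0.57 and 4 were called higher (*Ccnd1*, *Fos*, *Egr1* and *Egr3*). DESeq2 called *Etv4* and *Egr3* higher, and limma-voom called none of these 17.

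Early response genes that rise when tissue is dissociated were listed too, since *Dusp1* belongs to the same kind. *Egr3* is also an early response gene, so this list and that of the ERK-induced transcripts are not separate readouts. Of these 18 genes 1 rose and all 18 had a log2 fold change above 0, with a median of 0.30. *Socs3*, a feedback inhibitor of cytokine signaling, measured 236 ± 24.6 CPM in WT and 345 ± 30.2 CPM in KO (log2 fold change 0.55, SE 0.11, edgeR adjusted p = 0.0453), and *Zfp36* had 0.58 (edgeR adjusted p = 0.0722). WT b was the lowest library for 13 of the 18 and WT c for the other 5, and without WT b the median was 0.07 with 13 genes above 0 and 0 called by edgeR. *Socs3* was also not called without WT c or any KO library, or with either filter on low counts. Without WT a the median was 0.59 and 7 were called higher (*Fosb*, *Junb*, *Atf3*, *Nr4a1*, *Btg2*, *Zfp36* and *Socs3*). DESeq2 called *Zfp36* and *Socs3* higher, and limma-voom called none of this list. The summed level of the list was 6993 CPM in WT b, beside 8508 to 12780 CPM in the other WT libraries and 10733 to 12404 CPM in KO. *Dusp1*, *Dusp5*, *Dusp6* and *Spry4* shared with it their low value in WT b. A lowest sum in WT b was not particular to the list, but its size differed. The ERK-induced transcripts summed to 4141 CPM in WT b and to 4902 to 7791 CPM in the other libraries. The keratinocyte markers below summed to 32921 CPM in WT b and to 38350 to 50063 CPM in the other libraries. The cascade sum was also lowest in WT b, at 2533 CPM, beside 2711 to 2787 CPM in the other libraries. That of the phorbol ester receptors was highest in WT b, at 414 CPM. WT b was the lowest library for 88.2% of the ERK-induced transcripts and 72.2% of the early response genes. It was the lowest for 55.6% of the keratinocyte markers, 54.5% of the cascade and 28.7% of all genes with at least 10 counts throughout. The part of this early response in the values of the 9 genes was not tested.

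**Figure D4:**
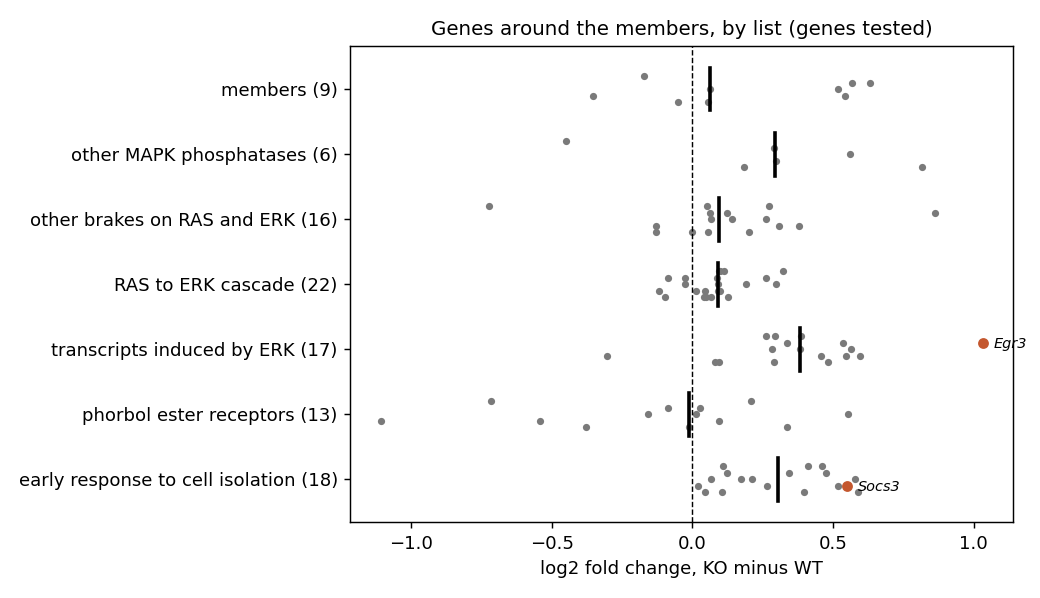
Log2 fold change, KO minus WT (horizontal axis), of each gene of 7 lists; points are genes, black bars the list medians, and colored named points have an edgeR adjusted p below 0.05. The medians of the ERK-induced transcripts (0.38) and of the early response genes (0.30) lie above that of the 9 feedback genes (0.06), which was 0.38 (the value of *Dusp1*) without WT a when the other medians were 0.57 and 0.59, and *Egr3* and *Socs3* are the only genes called here.

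Marker genes were checked beside these values. Of 9 keratinocyte and hair bulge markers, *Krt5* was the most abundant, with 14267 (WT b) to 23976 (WT a) CPM over the 6 libraries, and *Krt19*, whose promoter drives Cre, had 2.20 to 4.77 CPM. Among them 1 fell, the bulge marker *Cd34*, from 853 ± 40.7 to 516 ± 113 CPM (log2 fold change -0.72, edgeR adjusted p = 0.0462), and *Lgr5* had -0.47 (edgeR adjusted p = 0.283). *Cd34* was not called by limma-voom, with either filter on low counts, or without WT b, WT c, KO a or KO c. The share of bulge cells in the sort was not tested.

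Of the markers of other cells, 1 passed the test. Of 6 melanocyte markers it was *Mitf* that fell (log2 fold change -0.93, edgeR adjusted p = 0.0158). *Mitf* was not called by limma-voom, with either filter on low counts, or without WT c, KO a or KO c. The melanocyte list summed to 63.6 to 81.4 CPM in WT and 40.6 to 47.3 CPM in KO, with *Mitf* the most abundant. Of 6 fibroblast markers edgeR called 0, with 2 higher and 3 lower at an unadjusted p below 0.05, and DESeq2 called *Col1a2* lower and *Dcn* higher. They summed to 116 to 178 CPM in WT and 48.1 to 80.3 CPM in KO, with *Col1a1* (log2 fold change -1.19, edgeR adjusted p = 0.127, called lower without WT b) the most abundant and *Col1a2* at -1.18 (adjusted p = 0.0555). Of 8 immune markers 0 were called by edgeR or DESeq2 and 0 had an unadjusted p below 0.05, with sums of 7.92 to 14.6 CPM in WT and 8.97 to 13.3 CPM in KO, most of it *Cd74*, and *Ptprc*, which marks all leukocytes, was at 0.17 to 0.629 CPM. Of 5 endothelial markers edgeR called 0 and DESeq2 1 (*Tek*, lower), 1 was higher and 1 lower at an unadjusted p below 0.05, with sums of 5.56 to 8.67 CPM in WT and 3.70 to 4.97 CPM in KO, the most abundant being *Tek* (log2 fold change -1.49, edgeR adjusted p = 0.0708), while *Cdh5* had no count in 4 libraries and *Emcn* none in 5. The sums of the fibroblast, melanocyte and endothelial markers were lower in every KO library, as were *Spry1* and *Spred1*, but the melanocyte and endothelial sums rested on *Mitf* and *Tek*. Without *Mitf* the other 5 melanocyte markers, all with a log2 fold change above 0, summed to 6.33 to 13.4 CPM in WT and 10.3 to 11.7 CPM in KO. Without *Tek* the endothelial sums also overlapped, at 2.34 to 3.44 CPM in WT and 2.64 to 3.42 CPM in KO. The fibroblast sums without *Col1a1* did not overlap (54.6 to 75.9 CPM in WT, 21.3 to 40.8 CPM in KO). Most of what remained was *Col1a2*, at 53.1, 72.9 and 59.8 CPM in WT and 15.3, 31.8 and 34.9 CPM in KO. The lower fibroblast sums thus rested mainly on *Col1a1* and *Col1a2*. Of the 6 fibroblast markers, 3 had a log2 fold change below 0 and 3 above. Among the latter *Dcn* had 1.84 (edgeR adjusted p = 0.113), and *Col3a1* and *Lum* were at 0 or near it in WT. The part of these cells in the values of *Spry1* and *Spred1* was not tested.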

How the data were processed

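The authors sequenced strand-specific libraries of polyadenylated RNA as single reads, aligned them to mouse build GRCm38 with TopHat2 2.1.0 and Bowtie 1.1 (versions per the submitters' processing notes), and took the uniquely mapped reads of each gene with a custom counter that uses strand. The deposited values are these counts, unnormalized and not pooled. Because strand was used, the antisense genes that overlap *Dusp5*, *Spry1* and *Spry4* should not add to their counts. The authors' own fold changes were not among the columns used.

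Each column carried its genotype but not the sample number of the labels. The 21681 of 22295 genes that were detected somewhere entered the quasi-likelihood test of edgeR 4.0.16 (TMM normalization, R 4.3.3), which compared KO with WT. P-values were adjusted over all of these genes after Benjamini and Hochberg, and a gene was called at an adjusted p below 0.05. The CPM of each feedback gene were also compared by an exact permutation test (two-sided). Exon lengths, used only for levels per kb, came from GENCODE M21, which held 98.9% of the gene identifiers, cut to the gene bounds of the count table. The detection floor of 3 counts equals 0.127 to 0.146 CPM, which covers counting error only.

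The alternatives were limma-voom (limma 3.58.1), DESeq2 1.42.0, library size only, upper-quartile factors, filterByExpr, a minimum of 10 counts in each library, and each library left out in turn. For the 9 genes an adjusted p below 0.1 was also used, in the main edgeR fit only. The genes named were the 9, *Itga3*, in each list every gene called and the 2 of smallest p, the most abundant gene of each marker list, and the 3 most like *Dusp6*. *Krt19*, *Ptprc*, *Cdh5*, *Emcn*, *Col3a1*, *Lum* and genes named with other settings were named after their values were seen. The 9 genes and the lists were chosen with earlier results of these data known. Of the 9 immune markers listed, *Trdc* was not analysed here. For 1 gene that this naming covers, the result is left out.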

Additional observations from a re-analysis of the deposited data

How the results depend on the processing

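No paired analysis was possible because the columns of the count table carry no sample number. Of the 9 feedback genes, 0 were called by limma-voom, DESeq2, other scalings or either filter on low counts. With a library left out, 0 to 1 were called (*Dusp5* without WT a). An adjusted p below 0.1 was applied to the main edgeR fit only and also called 0, while *Spry1* had an adjusted p of 0.0846 by DESeq2. Their order of levels did not depend on exon length. Leave-one-out log2 fold changes ran from -0.16 to 0.38 for *Dusp1* and from -0.16 to 0.01 for *Spred2*, and so changed sign (*Spred2* was at 0.0091 without WT a and 0.0056 without WT c, *Dusp1* at -0.16 without WT b and -0.10 without KO b). The other 7 kept their sign under every alternative. The number of genes called by edgeR, 146, was 24 with limma-voom, 546 with DESeq2, 15 after filterByExpr and 12 with a minimum of 10 counts per library, and 5 (without WT c) to 521 (without WT a) with a library left out, among them 10 without KO a and 30 without KO c. The list genes called, 4 in all (*Egr3*, *Socs3*, *Cd34* and *Mitf*), were 0 with limma-voom, 10 with DESeq2, 0 after filterByExpr, 0 with a minimum of 10 counts per library, and 0 to 16 with a library left out: 16 without WT a, 3 without WT b and 0 without WT c, KO a or KO c. The alternatives for the lists, the leave-one-out permutation values, the list medians and the marker sums without 1 gene were chosen after seeing the data. The cause of these changes was not tested. *Dusp4*, with 51 to 85 counts per library, is limited most by depth.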
